A study of Mus musculus with 6 samples.

Results

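The integrin and laminin genes were followed in the livers of mice that lack a working fumarylacetoacetate hydrolase, the enzyme encoded by Fah that completes tyrosine breakdown. Genes were taken by their symbols, from every probe set whose only annotated symbol begins with Itga or Itgb or is that of a laminin chain (Lama, Lamb or Lamc with its number), and a gene with more than 1 probe set was represented by the one with the highest mean log2 signal over all 6 arrays. This gave 40 genes of the 22180 with 1 symbol on the array. They comprise 26 integrin chains, 10 laminin chains and 4 genes that share the prefix but encode no integrin chain. The symbol alone decided which genes entered. The members were chosen with earlier results of these data known, however, and mean signal decided between probe sets of 1 gene.

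In the withdrawal group (3 arrays), NTBC was stopped at 11 weeks of age and livers were taken after 7 days without it. The continuous group (3 arrays) drank NTBC throughout, at 8 mg/l. All animals were males of the FAH5981SB strain on a C57Bl/6J background, 12 weeks old at collection, and carry a G to A point mutation in the last nucleotide of exon 8 of Fah. They were fed a chow low in tyrosine and phenylalanine, and the labels list 3% dextrose with the NTBC. NTBC (nitisinone) inhibits the enzyme encoded by Hpd, upstream of Fah, so that the toxic intermediates made in the absence of Fah do not form. No liver with intact Fah was analysed here, so both groups share the Fah defect. Replicates are labelled biological, but no animal is named for an array, and the p-values therefore measure the spread between these arrays.

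Integrins are cell surface receptors built of 1 alpha and 1 beta chain, and they link the extracellular matrix, or ligands on other cells, to the actin cytoskeleton. Laminins are trimers of an alpha, a beta and a gamma chain that organise basement membranes, and several integrins are laminin receptors. The healthy hepatic sinusoid has no continuous basement membrane, whereas bile ducts and larger vessels do, and hepatocytes, sinusoidal endothelial cells, stellate cells and leukocytes each carry their own set of integrins.

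Values are log2 signals of the deposited, normalized intensities, and a change is withdrawal minus continuous on the log2 scale. A gene was called where limma's p, adjusted by the Benjamini-Hochberg method over all 34472 probe sets, was below 0.05. Array medians lay between 5.21 and 5.39 in the withdrawal group and between 5.29 and 5.44 in the continuous group. Of the 40 genes, 23 were above the median of their array on all 6 arrays and 5 (Itgb7, Itgb6, Itgb2l, Itgad and Itgbl1) were below it on all 6. No detection flags are given, so a dim signal sets no statement about absence and its fold can be compressed. Signals of different probe sets are not compared with one another. In whole liver RNA, a change in the number of cells of a type and a change in RNA per cell cannot be told apart.

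After NTBC withdrawal, 3 of the 40 genes were higher and 0 were lower. These were Lamc1, the gamma chain shared by most laminins, Itgb5, the beta chain of the vitronectin receptor alpha v beta 5, and Itga5, the alpha chain of the fibronectin receptor alpha 5 beta 1. The 3 higher of 40 members stood beside 7.58% of all genes with 1 symbol called higher by the same fit, and the 0 lower members beside 3.39% called lower. The share of members called higher, 7.5%, was therefore close to that of all genes, while 0 members were called lower. The members' median change was -0.04, against -0.06 for all genes. At an unadjusted p below 0.05, limma gave 9 higher and 3 lower members, where 15.1% of all genes were higher and 10.7% lower. Over all probe sets 66.0% of calls were higher, against 77.2% with each array centred on its median, 58.3% with quantile normalization and 59.8% with array weights. The withdrawal arrays lay wholly above the continuous arrays for 9 members, where 17.1% of all genes did so, and wholly below them for 2 members, where 13.4% did so.

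**Figure D1:**
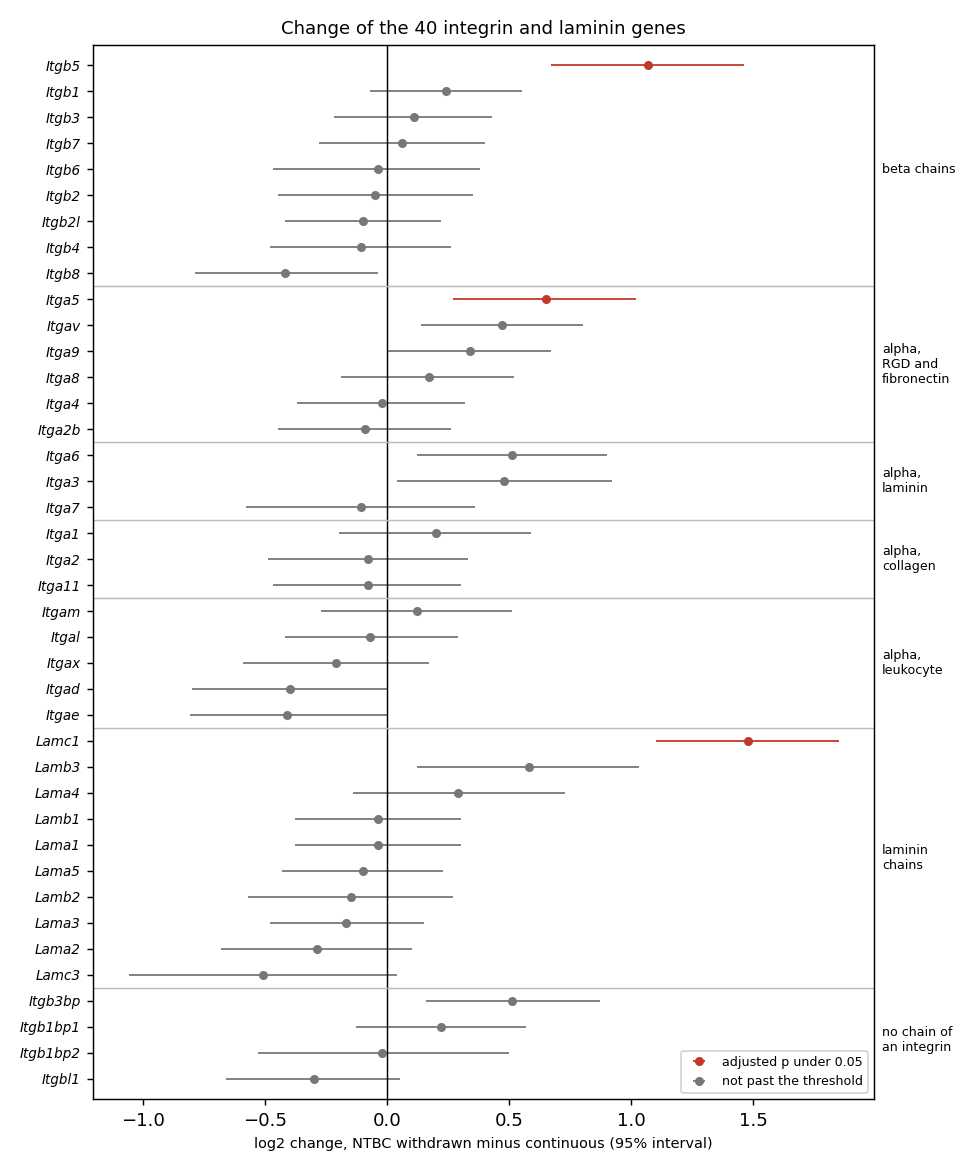
Log2 change (withdrawal minus continuous NTBC, horizontal axis) of each of the 40 genes with its 95% interval from limma, ordered by role and then by size. Red points passed the adjusted p of 0.05: Lamc1 at 1.48, Itgb5 at 1.07 and Itga5 at 0.65, while the other members lay between -0.51 and 0.58.

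Among the laminin chains, Lamc1 stood out by size. Its log2 signals were 8.29, 8.12 and 8.05 on the withdrawal arrays, against 6.78, 6.86 and 6.39 on the continuous arrays. Every withdrawal array was more than 1 log2 unit above every continuous array. The means were 8.15 ± 0.12 in withdrawal livers and 6.68 ± 0.25 in continuous livers (SD, n = 3 each), a 2.78-fold difference in signal (log2 change 1.48, SE 0.17, limma adjusted p = 4.98e-04). The call held with each array left out in turn, with changes from 1.33 to 1.57 and a highest adjusted p of 0.00418.

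Lamb1, the beta chain that joins the gamma 1 chain in many laminins, had log2 signals of 6.13, 6.33 and 6.19 on the withdrawal arrays and 6.16, 6.47 and 6.14 on the continuous arrays. The groups overlapped, and its log2 change was -0.04 (95% interval -0.38 to 0.30, adjusted p = 0.901). Lamb2, the other common beta chain, had a change of -0.15 (95% interval -0.57 to 0.27). Lamb3, the beta chain of an epithelial laminin, gave 6.02, 6.07 and 5.72 after withdrawal and 4.92, 5.55 and 5.61 with continuous NTBC. Its groups did not overlap, but its change of 0.58 (SE 0.20) did not pass (adjusted p = 0.116). Lamc3, a second gamma chain, went the other way in size, with 5.61, 4.98 and 5.97 in withdrawal livers and 5.78, 6.33 and 5.97 in continuous livers. These groups overlapped and the change of -0.51 (SE 0.25) did not pass (adjusted p = 0.25).

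None of the 5 laminin alpha chains was called by limma, and none had an unadjusted p below 0.05. Lama4, the alpha chain of vascular laminins, had a change of 0.29 (adjusted p = 0.409), with 5.91, 5.98 and 5.50 after withdrawal and 5.84, 5.41 and 5.26 under NTBC, which overlap. The change was -0.10 for Lama5, the other alpha chain of adult vessels, and -0.04 for Lama1, the alpha chain of early embryonic laminin. Lama2, best known from muscle and nerve, had a change of -0.29 and Lama3, of epithelia, of -0.17. Their adjusted p-values ran from 0.354 to 0.891.

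**Figure D2:**
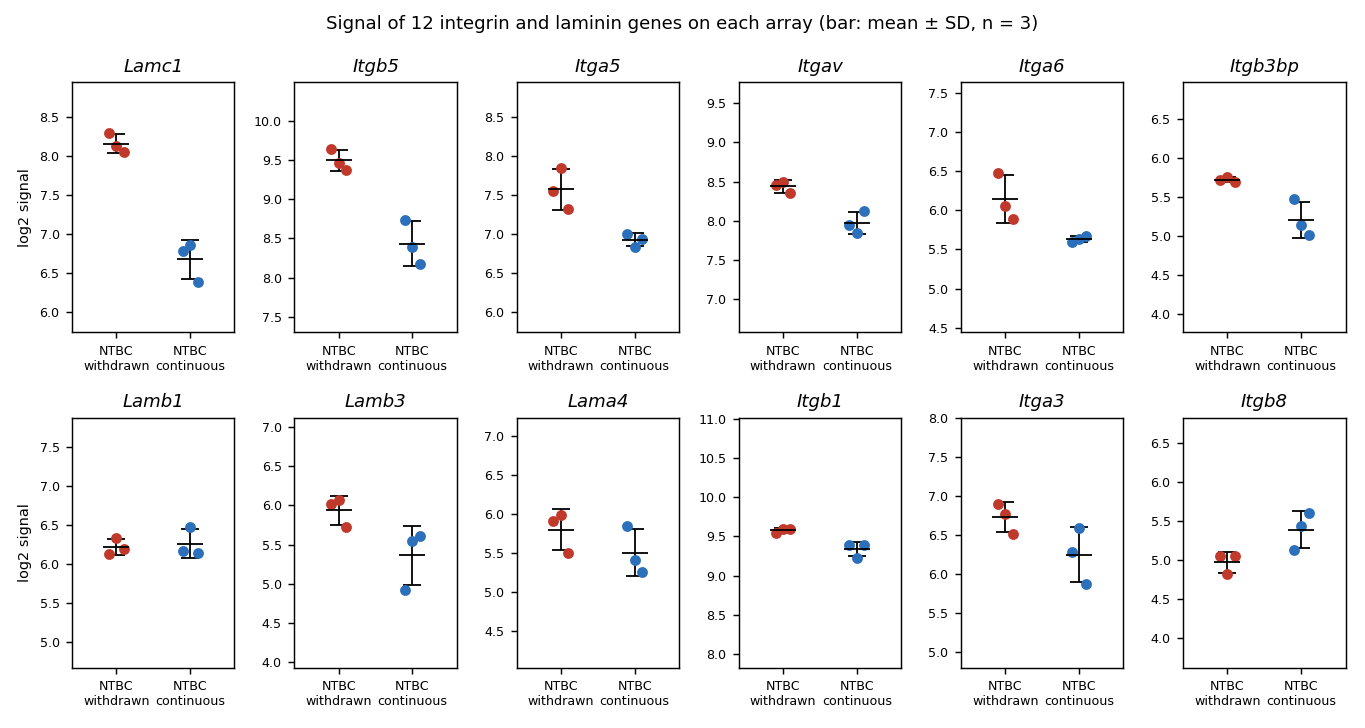
Log2 signal (vertical axis, spanning the same number of units in each panel) of 12 genes on each array, withdrawal (red) left of continuous NTBC (blue), with mean and SD over 3 arrays. Lamc1, Itgb5 and Itga5, which passed, show no overlap between groups, and Itgav, Itga6, Itgb3bp, Lamb3, Itgb1 and Itgb8 show none either without passing.

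Of 9 integrin beta chains, Itgb5 was the one that rose. It pairs with the alpha v chain and binds vitronectin through its RGD motif. Its log2 signals were 9.65, 9.47 and 9.38 in withdrawal livers, against 8.74, 8.39 and 8.17 in continuous livers, with no overlap. The means were 9.50 ± 0.14 after withdrawal and 8.43 ± 0.29 under NTBC (SD, n = 3 each), a 2.09-fold difference (log2 change 1.07, SE 0.18, adjusted p = 0.00437). Leaving out each array gave changes from 0.93 to 1.22, and the highest adjusted p was 0.0292.

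Itgb1, the partner of the largest number of alpha chains, was higher on each withdrawal array than on any continuous array, but by little. Its log2 signals were 9.54, 9.60 and 9.59 after withdrawal and 9.39, 9.23 and 9.39 under NTBC. The change of 0.24 (95% interval -0.07 to 0.55) did not pass (adjusted p = 0.337). Itgb8, which with alpha v binds latent TGF-beta, was lower on all withdrawal arrays, with 5.05, 4.82 and 5.05 against 5.13, 5.44 and 5.60 on the continuous arrays. This change of -0.42 did not pass either (adjusted p = 0.162). For Itgb3, the platelet and vascular beta chain, the change was 0.11, and for Itgb4, the beta chain of hemidesmosomes, it was -0.11. The remaining changes were -0.04 for the epithelial Itgb6, 0.06 for Itgb7 of lymphocytes, -0.05 for the leukocyte chain Itgb2 and -0.10 for the related Itgb2l. All of these groups overlapped, and the adjusted p-values ran from 0.707 to 0.913.

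The alpha chains that bind fibronectin or RGD ligands held the third call, with 1 of 6 higher. Itga5 had log2 signals of 7.55, 7.85 and 7.33 in withdrawal livers and 7.01, 6.84 and 6.94 in continuous livers. The lowest withdrawal array was above the highest continuous array. Its means were 7.58 ± 0.26 after withdrawal and 6.93 ± 0.09 under NTBC (SD, n = 3 each), a 1.57-fold difference (log2 change 0.65, SE 0.17, adjusted p = 0.0375). Itga5 no longer passed in 4 of the 6 fits on 5 arrays. Adjusted p was 0.115 when continuous replicate 2 was dropped and 0.0853 when continuous replicate 3 was. Dropping withdrawal replicate 1 gave 0.129 and dropping withdrawal replicate 2 gave 0.152, and the change was between 0.51 and 0.66 in these fits. Quantile normalization also ended it (change 0.50, adjusted p = 0.0533).

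Itgav, the alpha v chain that joins Itgb5 and several other beta chains, had log2 signals of 8.46, 8.50 and 8.35 after withdrawal and 7.94, 7.84 and 8.12 under NTBC. The groups were apart, yet the change of 0.47 (SE 0.15) did not pass (adjusted p = 0.0773). A second and much dimmer Itgav probe set disagreed, with a change of -0.06 (adjusted p = 0.848) and means of 4.41 ± 0.12 in withdrawal livers and 4.47 ± 0.10 in continuous livers (SD, n = 3 each). Averaging both probe sets gave 0.21 (adjusted p = 0.412). Itga9, which binds tenascin and the endothelial ligand VCAM1, gave 7.04, 7.00 and 6.80 after withdrawal and 6.56, 6.51 and 6.76 under NTBC, with a change of 0.34 (adjusted p = 0.210). Itga8, an RGD binding chain of mesenchymal cells, had a change of 0.17, Itga4, of leukocytes, of -0.02 and Itga2b, of platelets, of -0.09, all with overlapping groups.

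None of the 3 alpha chains of laminin receptors passed limma's threshold, although 2 had an unadjusted p below 0.05. Itga6, which pairs with beta 1 or beta 4, had log2 signals of 6.48, 6.06 and 5.89 in withdrawal livers against 5.60, 5.63 and 5.67 in continuous livers. The withdrawal values were spread more widely and lay above all continuous values, and the change of 0.51 (SE 0.17) gave adjusted p = 0.103. Itga3, a partner of beta 1 in epithelia, gave 6.90, 6.77 and 6.52 after withdrawal and 6.28, 6.59 and 5.88 under NTBC, with a change of 0.48 (adjusted p = 0.177) and overlapping groups. Itga7, the laminin receptor chain of muscle, had a change of -0.11 (adjusted p = 0.797).

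The collagen receptor chains Itga1, Itga2 and Itga11 had changes of 0.20, -0.08 and -0.08, with adjusted p-values from 0.543 to 0.832. For Itga1, found on sinusoidal and stellate cells, the log2 signals were 8.11, 8.40 and 7.86 after withdrawal and 8.09, 7.76 and 7.93 under NTBC. The 2 groups overlap. None of the 3 reached an unadjusted p below 0.05 in limma.

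Of 5 leukocyte alpha chains, none passed limma's threshold, and 2 had an unadjusted p below 0.05. Itgae, which with beta 7 binds E-cadherin, had log2 signals of 5.13, 4.71 and 5.21 in withdrawal livers and 5.28, 5.34 and 5.65 in continuous livers. Those groups did not overlap, and the change of -0.41 gave adjusted p = 0.208. Itgad, a partner of beta 2, had a change of -0.40 (adjusted p = 0.210). The change was 0.12 for Itgam, of myeloid cells, -0.07 for Itgal, of lymphocytes and other leukocytes, and -0.21 for Itgax, of dendritic cells and macrophages. Markers of leukocytes and platelets also gave few calls on the same arrays. In limma 0 of 12 Kupffer cell and macrophage markers were called (2 higher and 1 lower at an unadjusted p below 0.05). The same held for 0 of 10 T and NK cell markers (0 unadjusted), 0 of 5 B cell markers (1 unadjusted, lower) and 0 of 6 platelet markers (0 unadjusted). Of 9 neutrophil markers, Retnlg alone was called (lower, 11.1%, beside 3.39% of all genes), with a change of -0.65, and its log2 signal of 3.15 to 3.35 after withdrawal, against 3.61 to 4.22 under NTBC, lay below the lower quartile of its own array on all 6. That call was lost without any 1 array other than continuous replicate 1 (highest adjusted p = 0.169). Limma's unadjusted p was below 0.05 for 2 of the 9 neutrophil markers, each lower, beside 10.7% of all genes.

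The 4 genes that share the prefix without encoding a chain gave no call in limma and 1 unadjusted p below 0.05. Itgb3bp, a kinetochore protein named for a reported binding to the beta 3 tail, had log2 signals of 5.72, 5.76 and 5.69 after withdrawal and 5.47, 5.14 and 5.02 under NTBC. Its groups were apart, and the change of 0.51 (SE 0.16) did not pass (adjusted p = 0.0757), but did so without continuous replicate 1 (0.0261). The change was 0.22 for Itgb1bp1, an inhibitor that binds the beta 1 tail. It was -0.02 for the muscle protein gene Itgb1bp2 and -0.30 for Itgbl1, which encodes a secreted protein with integrin-like repeats.

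Chains that share a complex are set side by side for 3 combinations, chosen after their values were seen because the changes differed, so the differences are a description with no test. The log2 change of Lamc1 was 1.52 above that of Lamb1. It was 0.60 above that of Itgav for Itgb5, and 0.41 above that of Itgb1 for Itga5.

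**Figure D3:**
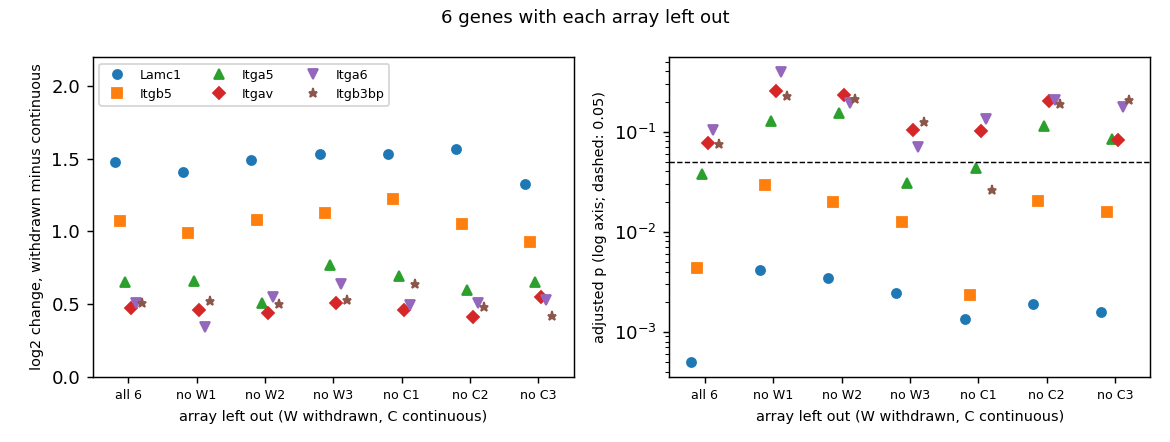
Log2 change (left, withdrawal minus continuous) and adjusted p on a log axis (right, dashed line at 0.05) of 6 genes with all 6 arrays and with each array left out (W withdrawal, C continuous). Lamc1 and Itgb5 stayed past the threshold throughout, Itga5 passed in 2 of the 6 cases, and Itgav and Itga6 in none.

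Promoter windows are shown for Itgb5 and Itga5, members that were higher, and for Nid1, the laminin linker described below. No window was available for Lamc1. Each window holds 250 bases before and 50 after the transcription start, from RefSeq on GRCm38.p6, written 5′ to 3′ on the gene's strand. Capitals mark the GC box, the letters GGGCGG on either strand, which the transcription factor Sp1 and its relatives bind. Itgb5 lies at chr16:33829415-33829714 on the plus strand, Itga5 at chr15:103366742-103367041 on the minus strand and Nid1 at chr13:13437352-13437651 on the plus strand.
Itgb5: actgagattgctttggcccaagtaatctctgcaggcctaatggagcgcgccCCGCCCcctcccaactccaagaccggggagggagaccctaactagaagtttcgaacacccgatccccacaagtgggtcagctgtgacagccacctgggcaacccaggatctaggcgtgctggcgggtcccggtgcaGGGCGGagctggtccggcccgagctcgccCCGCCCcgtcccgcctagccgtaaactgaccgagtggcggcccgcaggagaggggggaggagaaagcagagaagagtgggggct
Itga5: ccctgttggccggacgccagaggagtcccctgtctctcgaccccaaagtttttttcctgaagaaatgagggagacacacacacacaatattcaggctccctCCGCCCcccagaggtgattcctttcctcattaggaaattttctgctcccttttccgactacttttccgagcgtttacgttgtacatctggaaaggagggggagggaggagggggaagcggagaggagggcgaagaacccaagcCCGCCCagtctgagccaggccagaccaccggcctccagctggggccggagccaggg
Nid1: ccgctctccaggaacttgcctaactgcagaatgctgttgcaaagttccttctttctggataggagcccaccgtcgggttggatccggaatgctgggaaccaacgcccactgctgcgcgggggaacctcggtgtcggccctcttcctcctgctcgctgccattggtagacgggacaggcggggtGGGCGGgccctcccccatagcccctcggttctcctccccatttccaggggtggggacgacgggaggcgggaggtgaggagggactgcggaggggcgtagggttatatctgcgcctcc

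The windows hold 65.7% G and C for Itgb5, 58.7% for Itga5 and 64.7% for Nid1. A GC box was found 3 times in the Itgb5 window, 2 times in that of Itga5 and 1 time in that of Nid1. It was present in 35.7% of all 32851 windows of the same length, and in 13 of the 29 windows of member genes. These 29 windows belong to 26 member genes, of which 12 had the GC box. The AP-1 motif TGANTCA, present in 7.81% of all windows, and the core of the antioxidant response element, TGACNNNGC, present in 12.4%, were searched on both strands, and these letters do not occur in the 3 windows shown. Among the 29 windows of member genes, 3 had the AP-1 letters and 4 those of the antioxidant response element core. A match is a description of the letters and not of binding.

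Among 19 measured genes of the basement membrane other than laminins, 2 were higher (10.5%, beside 7.58% of all genes) and 2 lower (10.5%, beside 3.39%). Both higher ones encode nidogens, which link laminin to type IV collagen by binding the gamma 1 chain encoded by Lamc1. Nid1 had log2 signals of 9.71, 9.26 and 8.92 in withdrawal livers, against 6.92, 6.41 and 6.61 in continuous livers. That is a 6.28-fold difference between groups that lie far apart (log2 change 2.65, SE 0.22, adjusted p = 6.67e-05), and a second Nid1 probe set gave a change of 2.33 (adjusted p = 1.47e-04). Nid2 was 1.92-fold higher (log2 change 0.94, adjusted p = 0.0159), with 7.79, 8.03 and 7.30 after withdrawal and 6.98, 6.65 and 6.66 under NTBC. The Nid2 call was lost without continuous replicate 2 or 3 or withdrawal replicate 1 or 2 (highest adjusted p = 0.0764). Col18a1, whose collagen is made largely by hepatocytes in the liver, fell by 0.94 (adjusted p = 0.00633), with 8.37, 8.71 and 8.25 after withdrawal and 9.52, 9.40 and 9.24 under NTBC. Agrn, the proteoglycan agrin, fell by 0.56 (adjusted p = 0.0472), and its call was lost with any 1 array left out (highest adjusted p = 0.141). The type IV collagen genes Col4a1 and Col4a2 did not pass, at 0.01 and -0.09.

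Of 27 measured ligands outside the basement membrane, 4 were higher (14.8%, beside 7.58% of all genes) and 4 lower (14.8%, beside 3.39%). The lower ones are mainly plasma proteins secreted by hepatocytes. Fn1, fibronectin, the ligand of alpha 5 beta 1, had log2 signals of 11.03, 11.08 and 11.18 in withdrawal livers and 12.01, 12.15 and 11.85 in continuous livers, and fell by 0.91 (adjusted p = 0.00392). Vtn, vitronectin, the ligand of alpha v beta 5, fell by 0.66 (adjusted p = 0.0192), with 12.34, 12.56 and 12.27 after withdrawal and 13.00, 13.06 and 13.08 under NTBC. The transcripts of Fn1 and Vtn were lower in the livers in which those of Itga5 and Itgb5 were higher. Protein was not measured, and a link between these changes was not tested. The fibrinogen genes Fgg and Fga fell by 1.12 and 0.90, while the other fibrinogen gene, Fgb, had a change of -0.37 and did not pass (adjusted p = 0.142). The Vtn call was lost without continuous replicate 2 or 3 or withdrawal replicate 1 or 3 (highest adjusted p = 0.104).

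The 4 ligands that rose were F11r, Icam1, Postn and Mfge8. F11r, a junctional adhesion molecule and ligand of the leukocyte integrin alpha L beta 2, rose by 0.95 (adjusted p = 0.00406), with 9.94, 9.98 and 9.70 after withdrawal against 9.10, 8.86 and 8.81 under NTBC. Icam1, another ligand of that integrin, rose by 0.81 (adjusted p = 0.0170). Mfge8, which bridges dying cells to the alpha v integrins of phagocytes, rose by 0.66 (adjusted p = 0.0461), and Postn, periostin, by 0.72 (adjusted p = 0.0309). The F11r call held in all 6 fits with 1 array left out (highest adjusted p = 0.0289). Icam1 held in 3 of them (highest 0.0816), Mfge8 in 2 (0.192) and Postn in 1 (0.154). With 1 array dropped, 1 ligand was higher in 3 fits (continuous replicate 2 out, or either of withdrawal replicates 1 and 2), and 3 were higher when replicate 3 of either group was out.

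Of 11 membrane proteins that associate with integrins, 7 were higher (63.6%, beside 7.58% of all genes) and 0 lower in limma (0 at an unadjusted p below 0.05), with a median change of 0.74. This list was drawn up with earlier results of these data known, so its share is a description and was not tested against other genes. The tetraspanins Cd9, Cd151 and Cd81, which form complexes with integrins in the plasma membrane, rose by 1.54, 0.86 and 0.74. The tetraspanins Cd63 (0.82, adjusted p = 0.0524) and Cd82 (-0.04, adjusted p = 0.889) did not pass. Nor did Plaur (0.49, adjusted p = 0.073) and Cav1 (-0.30, adjusted p = 0.242). Cd9 had log2 signals of 8.91, 8.63 and 8.30 in withdrawal livers and 7.06, 6.96 and 7.19 in continuous livers (adjusted p = 5.56e-04), while a second, dimmer Cd9 probe set had a change of -0.28 (adjusted p = 0.475). The mean of both Cd9 probe sets had a change of 0.63 and did not pass (adjusted p = 0.0504). For Cd151, the partner of laminin-binding integrins, the signals were 8.71, 8.98 and 8.56 after withdrawal and 7.87, 7.82 and 7.98 under NTBC (adjusted p = 0.00750). Cd36 (2.69), Slc3a2 (1.31), Bsg (0.62) and Cd47 (0.52) made up the rest of the 7 called. They are best known for fatty acid uptake, amino acid transport, carriage of monocarboxylate transporters and a signal that restrains phagocytosis. With 1 array left out, 5 to 7 of the 11 were higher, and Cd47 was lost in every such case (highest adjusted p = 0.182). Bsg failed in 4 such fits, those that dropped a withdrawal array and the one that dropped continuous replicate 2, where adjusted p reached 0.123.

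Of 26 measured genes of the cytoplasmic adhesion complex, 3 were higher (11.5%, beside 7.58%) and 1 lower (3.85%, beside 3.39%), with a median change of -0.06. Actn4, an actin crosslinker, rose by 0.90 (adjusted p = 0.00405), with 9.69, 9.65 and 9.62 in withdrawal livers and 8.81, 8.57 and 8.88 in continuous livers. Vcl, vinculin, which ties talin to actin, rose by 0.83 (adjusted p = 0.0118), and Tns3, a tensin, by 0.66 (adjusted p = 0.0372). Parva, an actin-binding partner of integrin-linked kinase, fell by 0.67 (adjusted p = 0.0207). Talin 1 (Tln1), which activates integrins through the beta chain tail, had a change of -0.17 and did not pass. The calls of Vcl (without withdrawal replicate 1 or 2), Tns3 (without continuous replicate 2 or 3, or withdrawal replicate 1 or 2) and Parva (without continuous replicate 2 or 3, or withdrawal replicate 1 or 3) were lost, with highest adjusted p-values of 0.0682, 0.184 and 0.115.

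**Figure D4:**
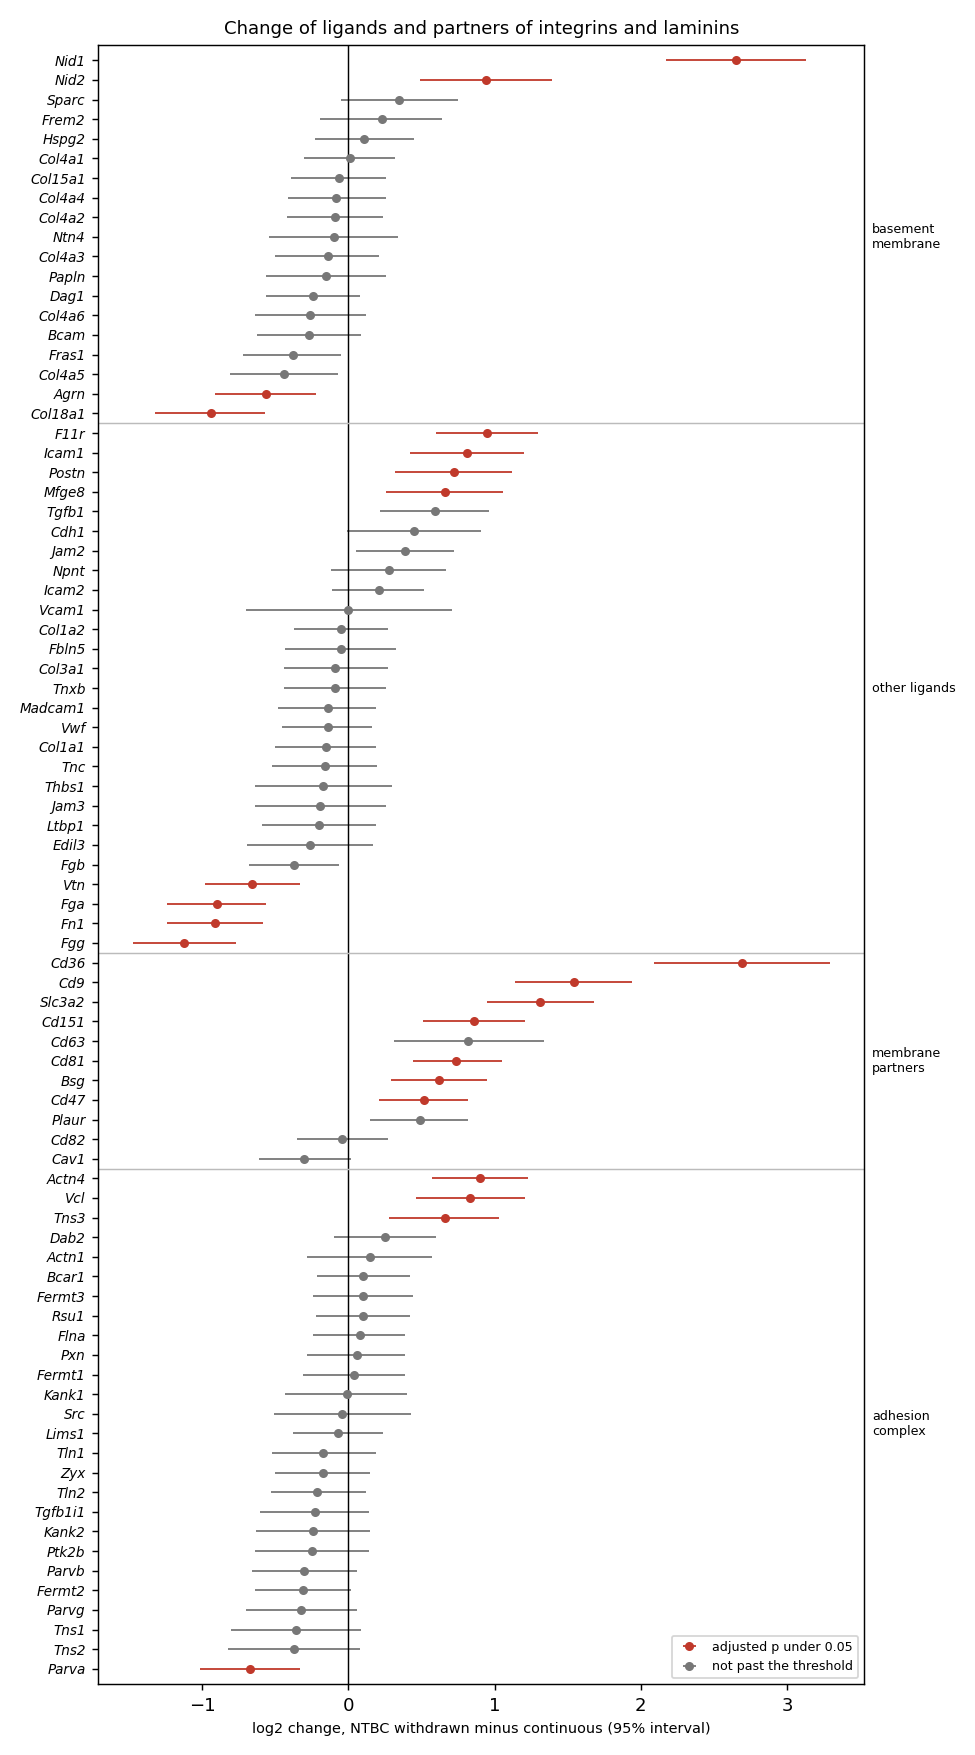
Log2 change (withdrawal minus continuous NTBC, horizontal axis) with its 95% interval for the measured genes of 4 lists, from top to bottom basement membrane, other ligands, membrane partners and adhesion complex. Red points passed the adjusted p of 0.05. Nid1 at 2.65 and Cd36 at 2.69 lie farthest to the right, and Fgg at -1.12 farthest to the left.

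Sinusoidal endothelial markers were examined on the same arrays as the higher members. All 14 measured markers had a change above 0, with a median of 0.42, and 3 were called (21.4%, beside 7.58% of all genes), Clec4g (0.81), Lyve1 (1.07) and Gpr182 (0.83). Limma's unadjusted p was below 0.05 for 10 of the 14, all higher, beside 15.1% of all genes. The withdrawal arrays lay wholly above the continuous arrays for 11 of the 14, beside 17.1% of all genes. Quantile normalization lowered the median to 0.24 and left Clec4g as the 1 call, whereas array weights gave 6 calls. Their summed linear signal was 3814 to 3906 on the withdrawal arrays and 2580 to 3117 on the continuous arrays, without overlap. The number called was 6 without continuous replicate 1, 2 without continuous replicate 3 and 1 without any other single array. Pecam1 and Cdh5, general endothelial markers, did not pass. Pecam1 had a change of 0.02 with overlapping groups. Cdh5 had a change of 0.41, and its withdrawal arrays lay wholly above the continuous arrays (limma unadjusted p = 0.0285, adjusted p = 0.153). Of 12 stellate cell and fibroblast markers, 0 were called in limma, with a median change of 0.22. Limma's unadjusted p was below 0.05 for 4 of the 12, all higher, beside 15.1% of all genes. The summed signal of these 12 markers was 2002 to 2435 after withdrawal and overlapped that of 1695 to 2138 under NTBC. The 8 measured cholangiocyte markers gave 0 calls (1 at an unadjusted p below 0.05, higher), with sums of 363 to 395 after withdrawal and 328 to 387 under NTBC. Hepatocyte markers summed to 64170 to 71000 in withdrawal livers and 77202 to 80809 in continuous livers. Of 9 measured, the metabolic genes Cps1, Pck1 and Ass1 were lower (33.3%, beside 3.39% of all genes). Ass1 did not pass with any 1 array other than continuous replicate 1 left out (highest adjusted p = 0.105). The other hepatocyte markers did not pass, with changes of 0.13 for Hnf4a, 0.10 for Ttr and -0.05 for Alb. Apoa1 had a change of -0.23, and Apoa2 and Serpina1c of -0.18 each. No marker had a signal of 0 in this table. The part of sinusoidal endothelial cells in the changes of Lamc1, Itgb5 and Itga5 was not tested.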

How the data were processed

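Liver RNA was measured on 6 Affymetrix whole-transcript arrays, 3 per group. The deposited table gives each probe set a normalized, linear intensity per array. The authors used Transcriptome Analysis Console, per the submitters' processing notes; its version, background correction and normalization are not given in the sources used here. The values were converted to log2 and not normalized again. Genes were named from the platform annotation (23521 probe sets with 1 symbol, 1814 with several, 9137 with none); 3 probe sets that carry a member's symbol beside another were not used. All 40 members matched RefSeq (GRCm38.p6) by gene ID. Limma 3.58.1 in R 4.3.3 (lmFit, eBayes, 4 residual degrees of freedom) was fitted to all 34472 probe sets without a filter, two-sided, and was tested on simulated data. With 3 arrays in a group, precision is limited by their number. Replicate numbers did not pair the arrays: deviations from group means correlated at 0.16, -0.12 and 0.22 for the 3 numbers. No pair of arrays shared more than 1.80% of values exactly.

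The members and the gene lists were chosen with earlier results of these data known. All members were to be named; of other lists the 3 called genes with the smallest p. Further genes (Agrn, Vtn, Fga, Icam1, Mfge8, Postn, Cd151, Cd81, Bsg, Cd47, Cd63, Cd82, Plaur, Cav1, Fgb, Tns3, Tln1, Col4a1, Col4a2, Pecam1, Cdh5, Hnf4a, Ttr, Alb, Apoa1, Apoa2, Serpina1c) were named after their values were seen. Alternatives were quantile normalization, median centring, no dim probe sets, a replicate block, array weights, a trended robust prior, 1-symbol probe sets only, averaging all probe sets of a gene, a 2-fold minimum, each array left out, low signals raised to the lower quartile of their array, and true chains only.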

Additional observations from a re-analysis of the deposited data

How the results depend on the processing

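Lamc1 and Itgb5 were called under all 17 alternatives, with changes from 1.33 to 1.58 and from 0.93 to 1.22, and no member was called lower under any. The number of members called, all higher, was 3 as reported, 5 without dim probe sets (29 members kept), 6 with array weights, 5 with low signals raised to the lower quartile, 4 with the trended robust prior, and 2 with quantile normalization or a 2-fold minimum. It ran from 2 to 4 with 1 array left out. With the replicate block it was 3, and no member's call changed. The genes that came in were Itgav (adjusted p = 0.0358, 0.0408, 0.0357 and 0.0474), Itgb3bp (0.0359, 0.0250 and 0.0490, and 0.0261 without continuous replicate 1) and Itga6 (0.0316 with array weights). The members' median change of -0.04 was 0.058 after median centring and 0.107 without dim probe sets, and ran from a lowest of -0.04 to a highest of 0.02 with 1 array left out. Median centring subtracts the median of each array, so every change moved by the same amount. It took the median of all probe sets from -0.077 to 0.023. Removing dim probe sets left the changes themselves as they were and took the median over the 29 members kept. Why the array medians differed was not tested. Members near 0 (at most 0.12 in size as reported) changed sign without passing in either case, in 43 values of 14 members. Quantile normalization gave 0.02 for Itga11 and Itgb2l, 0 for Itga2 and Lama1, 0.05 for Itga4, and 0.07 for Itgb1bp2 and Itgb6. Median centring gave 0.02 for Itga11 and Itga2, 0.01 for Itga2b, 0.08 for Itga4 and Itgb1bp2, 0.03 for Itgal, 0.05 for Itgb2, 0 for Itgb2l, and 0.06 for Itgb6, Lama1 and Lamb1. Array weights gave 0.03 for Itgal and Lama1, 0.02 for Itgb6 and -0.03 for Itgb7. With 1 array left out, the changes ran from -0.23 to 0.17 for Itgb1bp2, -0.20 to 0.03 for Itga11, -0.24 to 0.03 for Itga2, -0.31 to 0.04 for Itga7, -0.02 to 0.27 for Itgam, -0.18 to 0.09 for Itgb2, -0.10 to 0.07 for Lamb1, -0.09 to 0.10 for Itga4, -0.18 to 0.11 for Itgb6, -0.16 to 0.02 for Itgal, -0.03 to 0.15 for Itgb7 and -0.11 to 0.07 for Lama1. Over all probe sets 3241 were called (2139 higher and 1102 lower). The counts were 5588 (3339 and 2249) with array weights and 1178 (748 and 430) with the 2-fold minimum. Median centring gave 708 lower. With 1 array left out the totals ran from 1454 to 4210, the higher from 935 to 2629 and the lower from 519 to 1581. Dim signals limit what can be seen for members such as Itgb6 and Itgbl1.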
